A study of Mus musculus with 21 samples.

Results

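The aryl hydrocarbon receptor pathway was followed through 6 genes in nascent RNA of mouse cortical cultures. They were Ahr, the receptor itself, Arnt, its DNA-binding partner, Ahrr, its repressor, and Tiparp, Cyp1b1 and Nqo1, which are among its known target genes. The 6 genes were taken by symbol from a table of read counts over whole genes that lists 24984 genes. All 6 were among the 16959 genes that passed the filter on low counts and were tested. They were chosen by values measured in these libraries: Ahrr was selected on its difference between MM401 and DMSO in bicuculline at 1 h, and Tiparp on its MM401 and bicuculline differences. Those differences, and the averages that contain them, are given below as descriptions without a p-value. Which values put the other 4 genes on the list is not recorded.

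The libraries came from cortical cultures of CD1 mice, of mixed sex, on day 17 in vitro. All groups were pretreated for 30 min, either with the solvent DMSO or with 25 µM MM401, a peptidomimetic that blocks the binding of the H3K4 methyltransferase MLL1 (gene Kmt2a) to WDR5. Either 40 µM bicuculline, a GABA-A receptor antagonist that raises network activity, or water was then added for 1 h or 4 h. Every culture also received 2 mM bromouridine for the last 30 min, so that newly made RNA could be isolated and sequenced (BrU-seq). The 7 groups were DMSO with water at 4 h, DMSO with bicuculline at 1 h and at 4 h, MM401 with water at 1 h and at 4 h, and MM401 with bicuculline at 1 h and at 4 h. Each group had 3 replicate libraries. A group of DMSO with water at 1 h was not analysed here, so the response to 1 h of bicuculline in DMSO could be read only against water at 4 h.

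AHR is a ligand-activated transcription factor of the bHLH-PAS family that waits in the cytoplasm with HSP90 and p23. After binding a ligand it enters the nucleus, pairs with ARNT and binds DNA elements with the core GCGTG near genes such as Cyp1a1, Cyp1b1, Ahrr and Tiparp. The proteins of Ahrr and Tiparp feed back on the receptor, AHRR as a repressor that resembles AHR and TIPARP as an ADP-ribosyltransferase that modifies it. CYP1B1 is a cytochrome P450 monooxygenase, and NQO1 is a quinone reductase that is also a target of the oxidative stress factor NRF2.

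One library, replicate 3 of MM401 with water at 4 h, had 316741 counts, 0.503% of the median of the others, and was left out, which left that group with 2 libraries. The 20 libraries used had 49886348 to 87939384 counts. One other library stood apart in what it did to the counts of genes called: with replicate 1 of the DMSO water group removed, the MM401 comparison in water called 1272 genes in place of 14. Of the marker genes of cell types, those of neurons and astrocytes were the most strongly read (summed levels of 4520 to 7190 CPM and 1050 to 1630 CPM), so the cultures hold the cells their label names together with glia. Microglial markers summed to 22.2 to 37.2 CPM, mural and fibroblast markers to 8.33 to 14 CPM and endothelial markers to 2.69 to 4.28 CPM. Cldn5 (endothelial) and Lum (fibroblast) had 0 counts in at least 1 library. In such mixed cultures, fewer cells of a type and less RNA per cell cannot be told apart.

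By the coordinates of the table (mouse build mm10), Ahr spans 37012 bp at chr12:35497978-35534989 on the minus strand. Arnt spans 62851 bp at chr3:95434389-95497239 on the plus strand. Ahrr spans 81215 bp at chr13:74211117-74292331 on the minus strand. Tiparp spans 27073 bp at chr3:65528446-65555518 on the plus strand. Cyp1b1 spans 8122 bp at chr17:79706940-79715061 on the minus strand. Nqo1 spans 14982 bp at chr8:107388224-107403205 on the minus strand. Reads over exons and introns of these spans were counted together. Tiparp overlaps 969 bp of 4931440P22Rik on the opposite strand. As the use of strand in the counting is not given in the sources used here, the reads of this overlap cannot be assigned, although 4931440P22Rik itself had only 0.168 to 2.07 CPM.

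The promoters of Ahrr, Cyp1b1 and Tiparp are shown because these genes carry the differences described below: Ahrr and Cyp1b1 those between MM401 and DMSO, and Tiparp those between bicuculline and water. Each runs 5′ to 3′ in the direction of the gene, from 250 bases before to 50 bases after its start, as RefSeq gives it on GRCm38.p6. Capitals mark GCGTG, or CACGC where the match lies on the other strand. The windows are chr13:74292282-74292581 (minus strand) for Ahrr, chr17:79715012-79715311 (minus strand) for Cyp1b1 and chr3:65528197-65528496 (plus strand) for Tiparp.
Ahrr: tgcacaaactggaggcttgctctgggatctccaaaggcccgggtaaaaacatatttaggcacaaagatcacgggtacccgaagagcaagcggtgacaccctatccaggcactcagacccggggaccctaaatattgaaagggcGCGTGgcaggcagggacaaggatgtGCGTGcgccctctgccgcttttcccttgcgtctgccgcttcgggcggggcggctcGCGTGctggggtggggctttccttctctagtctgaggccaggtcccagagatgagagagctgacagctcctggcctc
Cyp1b1: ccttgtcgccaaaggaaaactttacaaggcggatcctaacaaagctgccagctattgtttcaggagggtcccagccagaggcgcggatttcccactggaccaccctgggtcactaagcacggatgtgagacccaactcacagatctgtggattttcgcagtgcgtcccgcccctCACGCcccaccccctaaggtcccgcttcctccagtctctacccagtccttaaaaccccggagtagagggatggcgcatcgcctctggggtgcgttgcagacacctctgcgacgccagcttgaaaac
Tiparp: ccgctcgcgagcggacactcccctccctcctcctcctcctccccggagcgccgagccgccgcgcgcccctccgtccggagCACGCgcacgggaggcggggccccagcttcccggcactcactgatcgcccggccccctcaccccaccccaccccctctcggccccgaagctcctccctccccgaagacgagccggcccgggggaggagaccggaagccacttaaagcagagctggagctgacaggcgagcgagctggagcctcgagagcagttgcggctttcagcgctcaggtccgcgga
The Ahrr window held 3 matches, 107, 82 and 27 bases before the start, and the last of these is part of the longer form TNGCGTG, whose letters overlap it. Cyp1b1 held 1 match, 76 bases before the start, and Tiparp 1, 170 bases before it. Of the other members in the RefSeq table, the Arnt promoter held 1 match and the Nqo1 promoter 0. On either strand, GCGTG occurs in 32.4% of the 32851 promoters of the same length, 3 or more matches in 3.91%, and TNGCGTG in 5.07%. A match is a stretch of letters and does not show that AHR binds there.

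Levels were compared between the 6 genes per length, as CPM (a library-size-scaled count from edgeR, with TMM factors) per kb of gene. The median over the 20 libraries was 11.4 CPM per kb for Tiparp, 2.1 for Arnt, 0.518 for Ahr, 0.211 for Cyp1b1, 0.0734 for Nqo1 and 0.0317 for Ahrr. This order held in 20 of 20 libraries for each pair of neighbours. The ranges over all libraries overlapped for Ahr and Cyp1b1 (0.357 to 0.816 and 0.102 to 0.375), for Cyp1b1 and Nqo1 (lowest to highest of the latter 0.0366 to 0.105) and for Nqo1 and Ahrr (0.0167 to 0.0561 in the latter). The receptor and its partner were thus well measured, with 704 to 2097 counts per library for Ahr and 6200 to 13622 for Arnt, as was Tiparp with 6045 to 31424. Ahrr had 80 to 282 counts, Cyp1b1 45 to 199 and Nqo1 30 to 106, so these 3 carry larger errors. Cyp1a1, the classical target of the receptor, had 0 to 6 counts per library and Cyp1a2 0 or 1, and neither was tested.

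**Figure D1:**
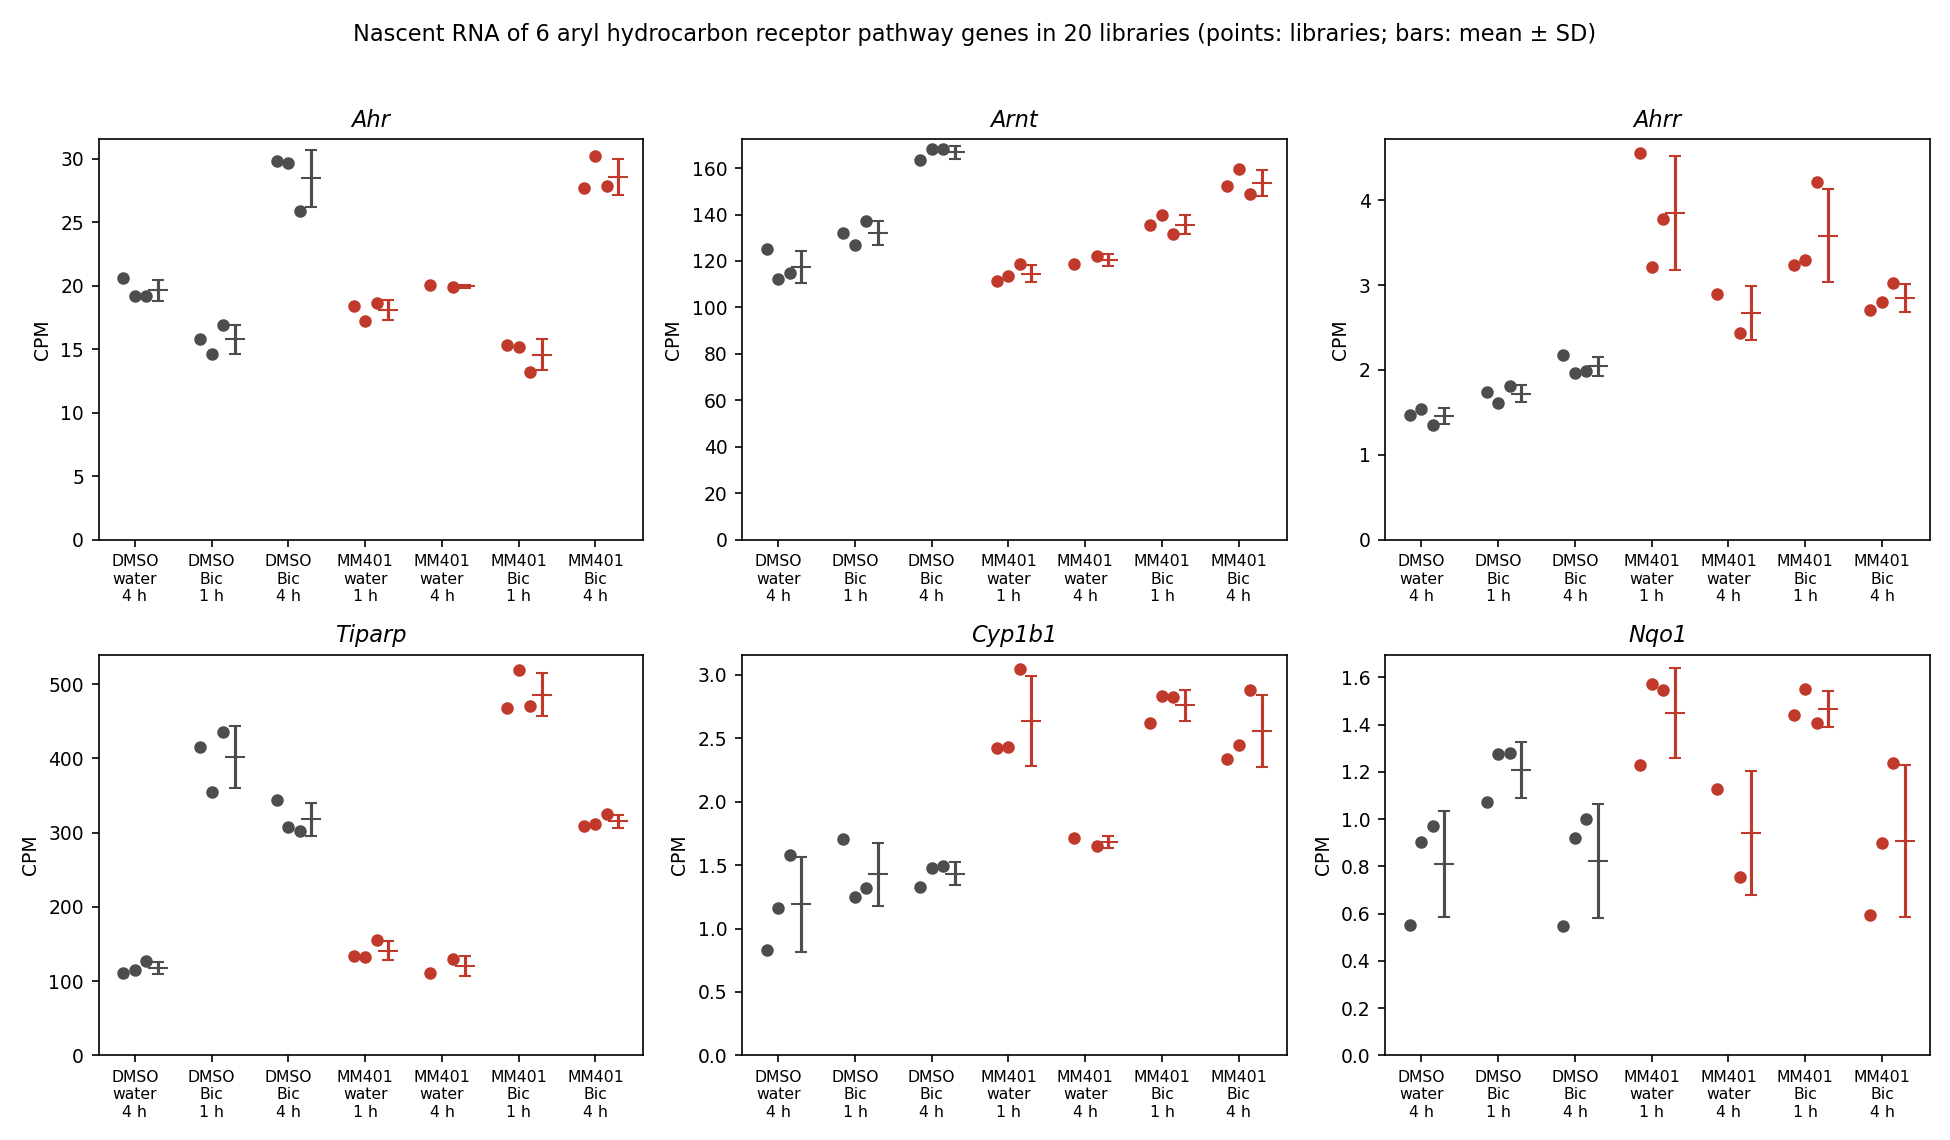
Nascent RNA level (CPM, TMM-scaled) of each of the 6 genes in the 7 groups, 1 point per library, with the group mean ± SD beside the points; DMSO groups are grey and MM401 groups red, and every axis starts at 0. Ahrr and Cyp1b1 are higher in the red groups, Tiparp, Ahr and Arnt move with bicuculline, and Nqo1 is high at 1 h.

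Ahr, the receptor, moved with bicuculline in opposite directions at 1 h and 4 h and had differences near 0 between MM401 and DMSO. In DMSO it had 20.6, 19.2 and 19.2 CPM with water at 4 h, 15.8, 14.7 and 16.9 CPM with bicuculline at 1 h, and 29.8, 29.7 and 25.9 CPM with bicuculline at 4 h. Under MM401 it had 18.4, 17.2 and 18.7 CPM with water at 1 h, 20.03 and 19.89 CPM with water at 4 h, 15.4, 15.2 and 13.2 CPM with bicuculline at 1 h, and 27.7, 30.2 and 27.9 CPM with bicuculline at 4 h. All libraries of 1 h of bicuculline were below, and all of 4 h above, those of water under the same pretreatment.

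At 1 h under MM401, bicuculline against water of the same time, Ahr fell by 0.31 ± 0.076 on the log2 scale (SE; adjusted p = 0.00214). In DMSO at 1 h, against water at 4 h, it fell by 0.32 ± 0.075 (adjusted p = 0.00159). At 4 h against water of the same time it rose by 0.54 ± 0.074 in DMSO (adjusted p = 3.24e-06) and by 0.52 ± 0.084 under MM401 (adjusted p = 3.55e-05). Bicuculline for 4 h against 1 h gave a rise of 0.85 ± 0.075 in DMSO (1.8-fold, adjusted p = 1.28e-08) and 0.97 ± 0.076 under MM401 (1.96-fold, adjusted p = 2.81e-09). Between MM401 and DMSO the Ahr difference was 0.02 ± 0.083 with water, -0.115 ± 0.076 after 1 h of bicuculline and 0.01 ± 0.073 after 4 h of it, with 95% intervals of -0.14 to 0.19, -0.26 to 0.03 and -0.14 to 0.15.

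Arnt, the shared partner of AHR, HIF1A and other bHLH-PAS proteins, rose with bicuculline at both times. In DMSO it had 125, 112 and 115 CPM with water at 4 h, 132, 127 and 137 CPM with bicuculline at 1 h, and 164, 168 and 168 CPM with bicuculline at 4 h. Under MM401 it had 112, 114 and 119 CPM with water at 1 h and 118 and 122 CPM with water at 4 h. With bicuculline under MM401 it had 135, 140 and 132 CPM at 1 h and 152, 160 and 149 CPM at 4 h. Every bicuculline library was above every water library under the same pretreatment.

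Arnt rose by 0.507 ± 0.052 in DMSO at 4 h (adjusted p = 5.03e-08), by 0.35 ± 0.059 under MM401 at 4 h (adjusted p = 5.29e-05) and by 0.24 ± 0.052 under MM401 at 1 h (adjusted p = 0.000779). In DMSO at 1 h, against water at 4 h, it rose by 0.17 ± 0.052 (adjusted p = 0.0116), a call that was lost with all 21 libraries (0.0645) or the compared groups alone (0.0689). Arnt rose further between 1 h and 4 h of bicuculline, by 0.34 ± 0.052 in DMSO (adjusted p = 2.4e-05) and by 0.18 ± 0.052 under MM401 (adjusted p = 0.0102). The last call was lost with all 21 libraries (adjusted p = 0.172), with the compared groups alone (0.0655), without replicate 3 of MM401 with bicuculline at 1 h (0.109) and without replicate 2 of MM401 with bicuculline at 4 h (0.0568). Scaled by plain library totals, both calls at 1 h were lost. The differences were -0.0191 in DMSO (adjusted p = 0.762) and 0.0281 under MM401 (adjusted p = 0.679). The median of all genes was -0.229 and -0.214 there, so Arnt still lay above the median gene. In bicuculline at 4 h all 3 MM401 libraries were below all 3 DMSO libraries (-0.119 ± 0.052), which was not called (adjusted p = 0.639).

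Ahrr, the repressor, was higher under MM401 in each of the 3 matched conditions, with no overlap between the libraries. In water at 4 h it had 1.47, 1.54 and 1.35 CPM in DMSO and 2.89 and 2.44 CPM under MM401. In bicuculline at 1 h it had 1.74, 1.61 and 1.81 CPM in DMSO and 3.23, 3.30 and 4.22 CPM under MM401. In bicuculline at 4 h it had 2.17, 1.96 and 1.99 CPM in DMSO and 2.71, 2.81 and 3.03 CPM under MM401. The MM401 libraries with water at 1 h, which have no DMSO counterpart here, were at 4.56, 3.22 and 3.78 CPM, within or above the range of all other MM401 libraries.

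In water at 4 h the log2 fold change of MM401 over DMSO for Ahrr was 0.87 ± 0.16 (1.83-fold, adjusted p = 0.0349). Of the 6 genes 1 was called there, Ahrr, and 0.0826% of all genes tested were called. This call rested on small margins: the value was 0.745 to 1 when each library of the comparison was left out in turn, and the adjusted p passed the threshold only with DMSO replicate 1 removed (0.00691). It was 0.161 and 0.203 with DMSO replicates 2 and 3 removed, 0.204 and 0.219 with MM401 replicates 1 and 2 removed, 0.262 with all 21 libraries, 0.141 with plain library totals and 0.522 with the compared groups alone. In bicuculline at 1 h the Ahrr difference, by which the gene was known, was 1.07 ± 0.14 (2.1-fold). There 0.0059% of all genes were called, 1 gene, which was Ahrr; as it was selected on this value, nothing is read from that count. The Ahrr value ran from 0.915 to 1.13 with 1 library left out, and edgeR no longer called it without DMSO replicate 2 or without MM401 replicate 3 of that condition, or with the compared groups alone. In bicuculline at 4 h it was 0.48 ± 0.14 (1.4-fold, adjusted p = 0.639), and 0 of the 6 genes and 0% of all genes were called by edgeR, with 1309 genes at an unadjusted p under 0.05 and 7 called by DESeq2.

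Over water and bicuculline at 4 h, which do not include the condition by which Ahrr was known, the average difference was 0.68 ± 0.11 (1.6-fold, adjusted p = 0.0399), and Ahrr was the 1 gene called (0.0059% of all genes). That average was chosen after the data were seen. The value stayed between 0.614 and 0.742 when each of the 11 libraries was left out in turn, but the call held in 1 of these 11 fits, the one that lacked DMSO water replicate 1 (adjusted p = 0.00858). In the other 10 the adjusted p ran from 0.0512 to 0.178, and it was 0.205 with all 21 libraries and 0.118 with the compared groups alone. Between 1 h and 4 h of bicuculline the MM401 difference of Ahrr changed by -0.584 ± 0.20, given as a description.

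Ahrr was called in bicuculline against water at 4 h in DMSO. In DMSO it rose at 4 h by 0.485 ± 0.15 (1.4-fold, adjusted p = 0.00895), with all 3 bicuculline libraries above the 3 of water. This was 0.406 with an adjusted p of 0.0553 when DMSO water replicate 3 was left out, and 0.209 (adjusted p = 0.282) with plain library totals, where the median of all genes was -0.3. In DMSO at 1 h against water at 4 h the difference was 0.237 ± 0.15, with all bicuculline libraries above those of water. Under MM401 it was -0.0984 ± 0.13 at 1 h and 0.0949 ± 0.16 at 4 h (adjusted p = 0.654), each with overlapping libraries. Both values at 1 h are descriptions, since each shares a group with the difference on which Ahrr was selected.

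Tiparp, which encodes the ADP-ribosyltransferase of the pathway, differed between bicuculline and water far more than between MM401 and DMSO. In DMSO it had 111, 115 and 127 CPM with water at 4 h, 415, 355 and 435 CPM with bicuculline at 1 h and 344, 307 and 302 CPM with bicuculline at 4 h. Under MM401 it had 134, 133 and 155 CPM with water at 1 h and 111 and 130 CPM with water at 4 h. With bicuculline under MM401 it had 468, 519 and 470 CPM at 1 h and 309, 311 and 326 CPM at 4 h. The bicuculline libraries lay above all water libraries under both pretreatments.

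Bicuculline over water for Tiparp was 1.79 ± 0.086 at 1 h under MM401 (3.45-fold), 1.77 ± 0.086 at 1 h in DMSO against water at 4 h (3.41-fold), 1.43 ± 0.085 at 4 h in DMSO (2.69-fold) and 1.39 ± 0.098 at 4 h under MM401 (2.61-fold), all as descriptions. MM401 over DMSO was 0.03 ± 0.094 with water, 0.27 ± 0.083 after 1 h of bicuculline, where the 3 MM401 libraries were above the 3 of DMSO, and -0.0112 ± 0.083 after 4 h of it. Between 1 h and 4 h of bicuculline the Tiparp step was -0.339 ± 0.084 in DMSO and -0.624 ± 0.084 under MM401, also descriptions, since they are differences of values on which the gene was selected. The drop under MM401 minus that in DMSO was -0.285 ± 0.12, as a description.

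Cyp1b1, the monooxygenase, was also higher in the MM401 libraries of all 3 matched conditions. In water at 4 h it had 0.829, 1.16 and 1.58 CPM in DMSO and 1.72 and 1.65 CPM under MM401. In bicuculline at 1 h it had 1.71, 1.25 and 1.32 CPM in DMSO and 2.62, 2.83 and 2.83 CPM under MM401. In bicuculline at 4 h it had 1.33, 1.48 and 1.49 CPM in DMSO and 2.34, 2.45 and 2.88 CPM under MM401. All MM401 libraries were above all DMSO libraries in each of these conditions, and the MM401 libraries with water at 1 h had 2.43, 2.43 and 3.05 CPM.

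For Cyp1b1 the MM401 difference was 0.48 ± 0.21 with water (1.4-fold, adjusted p = 0.327), 0.95 ± 0.18 after 1 h of bicuculline (1.94-fold, adjusted p = 0.0864) and 0.83 ± 0.18 after 4 h of it (1.78-fold, adjusted p = 0.474). None of these 3 was called by edgeR. DESeq2 called the last pair, with adjusted p-values of 0.000964 and 0.0401. With the replicate number as a block edgeR called the value at 1 h (0.938, adjusted p = 0.0444). Same-numbered libraries of those groups did not deviate together from their group means (correlations of 0.0738, -0.0446 and -0.229), so nothing is read from that block. Averaged over the 3 matched conditions Cyp1b1 was higher under MM401 by 0.755 ± 0.11 (1.69-fold, adjusted p = 0.00324), and it was called in 17 of 17 fits that left out 1 library (0.695 to 0.834). Ahrr had 0.81 ± 0.086 in this average, as a description, and Ahr, Arnt, Tiparp and Nqo1 had -0.0283, -0.0141, 0.0987 and 0.2.

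In this average 0.13% of all genes were called (7 higher and 15 lower). Of the 6 genes 2 were among them, Cyp1b1 and Ahrr; the average holds the value on which Ahrr was selected, so nothing is read from this count. The number called over all genes ran from 9 to 44 with 1 library left out. Averaged over the 4 h conditions alone, Cyp1b1 had 0.66 ± 0.13 (adjusted p = 0.112), called when DMSO water replicate 1 (0.566, adjusted p = 0.0425) or replicate 3 (0.782, adjusted p = 0.0349) was left out, and called by DESeq2 (0.664, adjusted p = 0.00308). Bicuculline over water for Cyp1b1 was 0.253 ± 0.18 at 4 h in DMSO (adjusted p = 0.271), 0.243 ± 0.18 at 1 h in DMSO against water at 4 h (adjusted p = 0.301) and 0.0686 ± 0.17 at 1 h under MM401 (adjusted p = 0.781). With DMSO water replicate 3 removed, the first and second of these passed, with 0.477 (adjusted p = 0.0424) and 0.511 (adjusted p = 0.0358).

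At 4 h under MM401 bicuculline raised Cyp1b1 by 0.604 ± 0.20 (1.52-fold, adjusted p = 0.0169), from a mean of 1.68 CPM in 2 water libraries to 2.56 CPM. That water group lay below MM401 with water at 1 h, which had a mean of 2.64 CPM, with no overlap and a step of -0.647 ± 0.20 (adjusted p = 0.153), so the bicuculline mean at 4 h was no higher than that of water at 1 h. The call was lost without replicate 3 of MM401 with bicuculline at 4 h (adjusted p = 0.0665), without MM401 water replicate 1 (0.0786) or replicate 2 (0.116), and with plain library totals (0.0657). In the same comparison, where 44.6% of all genes were called (23% higher), markers of several cell types rose: 3 of 3 of GABAergic neurons (list median 0.667), 3 of 4 of microglia (0.573), 2 of 5 of astrocytes (0.283), 2 of 5 of neurons (0.0236, with 2 lower), 1 of 5 of the oligodendrocyte lineage (0.137) and 1 of 5 of mural cells and fibroblasts (0.42). Of excitatory neurons 0 of 3 rose and 1 fell, and of endothelial cells 0 of 4 rose or fell. The summed level of the microglial markers was 32.0 to 37.2 CPM with bicuculline and 23.2 to 25.7 CPM with water. The part of these cell types in the Cyp1b1 value was not tested.

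Nqo1, the quinone reductase, had the fewest counts of the 6 and was higher at 1 h than at 4 h. In DMSO it had 0.553, 0.903 and 0.969 CPM with water at 4 h, 1.07, 1.27 and 1.28 CPM with bicuculline at 1 h and 0.548, 0.922 and 1.00 CPM with bicuculline at 4 h. Under MM401 it had 1.23, 1.57 and 1.55 CPM with water at 1 h and 1.13 and 0.756 CPM with water at 4 h. With bicuculline under MM401 it had 1.44, 1.55 and 1.41 CPM at 1 h and 0.593, 0.898 and 1.24 CPM at 4 h. The 1 h libraries were above the 4 h libraries of the same treatment in all 3 comparisons of time.

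Nqo1 fell from 1 h to 4 h of bicuculline under MM401 by 0.68 ± 0.25 (adjusted p = 0.0382). This call was lost without replicate 1 (0.0712) or replicate 2 (0.103) of MM401 with bicuculline at 1 h, without replicate 1 (0.204) or replicate 2 (0.0839) of the matching 4 h group, with all 21 libraries (0.0566) and with plain library totals (0.0907). The same step was -0.531 ± 0.25 in DMSO (adjusted p = 0.108, or 0.0465 with the replicate number as a block). It was -0.624 ± 0.28 in water under MM401 (adjusted p = 0.45). Bicuculline over water was 0.014 ± 0.24 at 1 h under MM401 (95% interval -0.451 to 0.479), 0.0232 ± 0.26 at 4 h in DMSO (-0.48 to 0.527) and -0.0453 ± 0.29 at 4 h under MM401 (-0.616 to 0.525). At 1 h in DMSO against water at 4 h it was 0.554 ± 0.25 (0.0659 to 1.04, adjusted p = 0.0749), with all bicuculline libraries above those of water. DESeq2 called that value (0.601, adjusted p = 0.0442), as did edgeR with the replicate number as a block (0.583, adjusted p = 0.0306). Same-numbered libraries of these groups did not all deviate together (correlations of 0.0885, 0.241 and -0.0198). MM401 over DMSO was 0.194 ± 0.29 with water, 0.279 ± 0.24 after 1 h of bicuculline, where the libraries did not overlap, and 0.126 ± 0.26 after 4 h of it, with adjusted p-values of 0.784, 0.999 and 0.932.

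**Figure D2:**
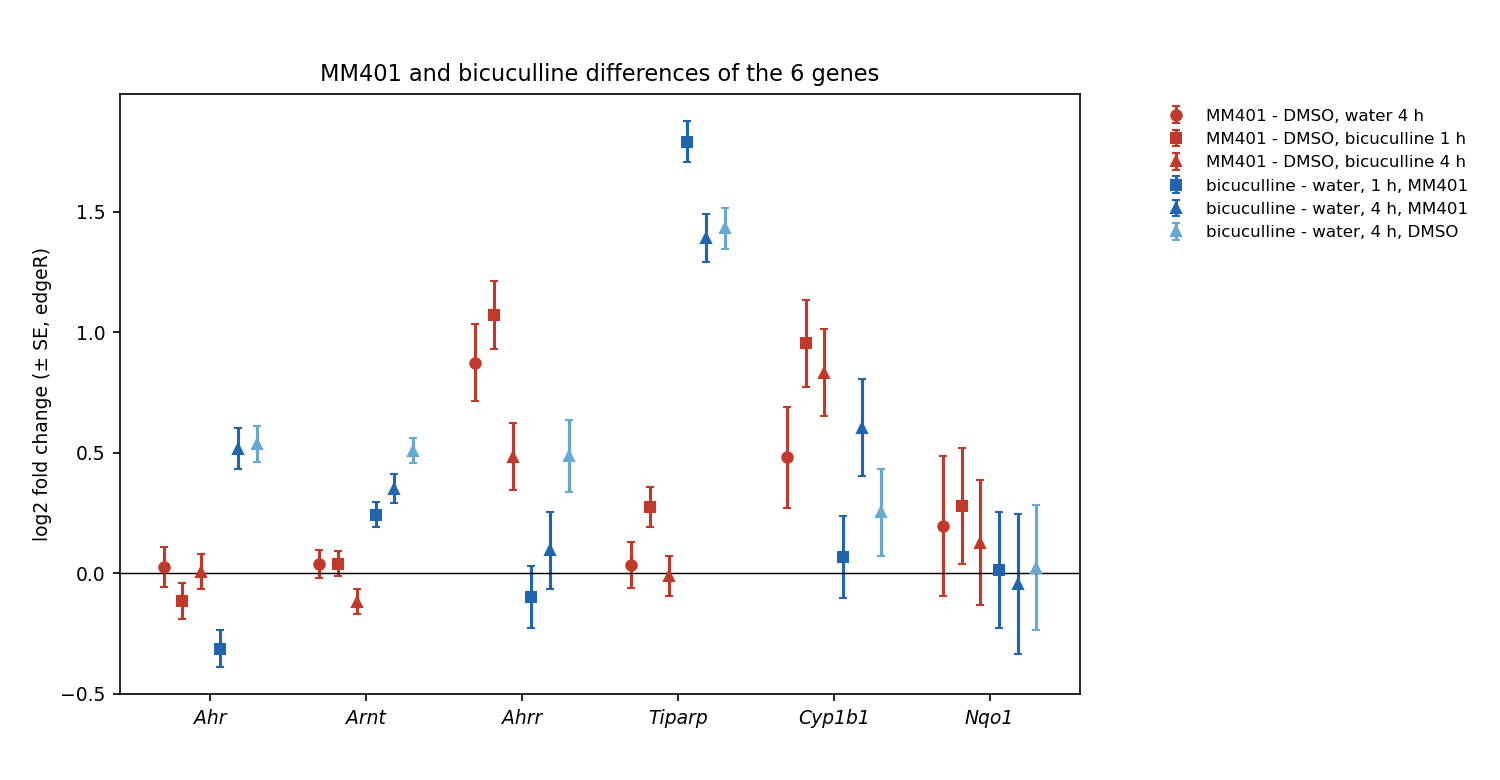
Log2 fold change ± SE (edgeR) of each gene for MM401 minus DMSO (red: circle, water at 4 h; square, bicuculline at 1 h; triangle, bicuculline at 4 h) and for bicuculline minus water (blue: square, 1 h under MM401; triangle, 4 h under MM401; light triangle, 4 h in DMSO). The red points are at 0.48 to 1.07 for Ahrr and Cyp1b1, and the blue points are at 1.39 to 1.79 for Tiparp.

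Setting the agents side by side, bicuculline called 4 of the 6 genes at 4 h in DMSO, all higher (Ahr, Arnt, Ahrr and Tiparp). There 49.2% of all genes were called, 23.7% higher. At 4 h under MM401 bicuculline called 4, all higher (Ahr, Arnt, Tiparp and Cyp1b1), where 44.6% were called, 23% higher. At 1 h under MM401 it called 3, Arnt and Tiparp higher and Ahr lower, where 39.9% were called, and at 1 h in DMSO against water at 4 h it again called Arnt and Tiparp higher and Ahr lower, where 44.6% were called. The response was broad and the genes are few, so these counts are no result about the 6 genes. Between 1 h and 4 h of bicuculline 3 of 6 were called in DMSO (34.2% of all genes) and 4 of 6 under MM401 (33.6%). In water 4 h against 1 h under MM401 called 0 of 6 and 0.867% of all genes, a share at which nothing can be read from 0. In this step Ahrr had -0.529 ± 0.16 (adjusted p = 0.13), Cyp1b1 -0.647 ± 0.20 (adjusted p = 0.153), Nqo1 -0.624 ± 0.28 and Tiparp -0.223 ± 0.095, lower at 4 h, and Ahr 0.142 ± 0.084, higher. The counts for bicuculline include Tiparp, which was selected on its bicuculline differences.

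The difference of the bicuculline response at 4 h between MM401 and DMSO was tested directly. Of the 6 genes 0 were called, and of all genes 0% by edgeR, with 2552 genes at an unadjusted p under 0.05 and 436 called by DESeq2. The interaction was -0.39 ± 0.22 for Ahrr (95% interval -0.812 to 0.0311, adjusted p = 0.383) and 0.351 ± 0.27 for Cyp1b1 (-0.179 to 0.882, adjusted p = 0.541). It was -0.156 ± 0.078 for Arnt (adjusted p = 0.347), and Ahr and Nqo1 had -0.0175 ± 0.11 and -0.0685 ± 0.39. With DMSO water replicate 1 removed it was called for 1551 genes, none of the 6 among them. The MM401 difference at 4 h of bicuculline minus that at 1 h was called for 0 of 6 and 0% of all genes by edgeR, with 1195 genes at an unadjusted p under 0.05.

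**Figure D3:**
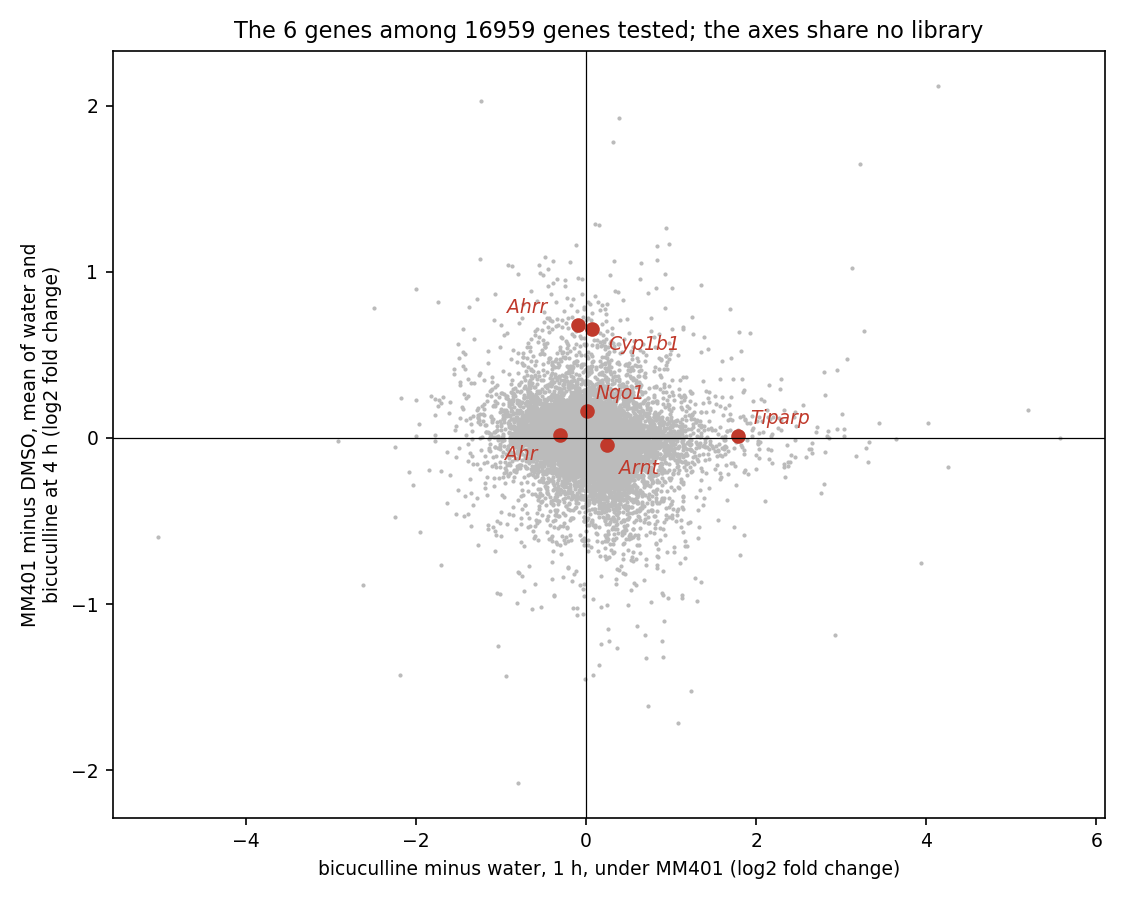
Each grey point is 1 of 16959 genes, with the bicuculline minus water difference at 1 h under MM401 on the x axis and the MM401 minus DMSO difference averaged over water and bicuculline at 4 h on the y axis (both log2 fold changes from edgeR, on separate libraries), and the 6 genes are in red. Tiparp lies far right at 1.79 and near 0 on the y axis, while Ahrr and Cyp1b1 lie near 0 on the x axis and at 0.68 and 0.66 on the y axis.

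Marker genes of cell types are given beside the Ahrr and Cyp1b1 differences. Of the tested markers of 8 cell types, 0 were called in MM401 against DMSO in the average of the 3 matched conditions, where 0.13% of all genes were called, a share at which nothing can be read from 0. The list medians were -0.116 (astrocytes) to 0.0854 (microglia). Summed microglial markers were 26.6 to 28.6 CPM under MM401 and 22.2 to 28.8 CPM in DMSO in bicuculline at 1 h, and 23.2 to 25.7 CPM and 23.1 to 27.7 CPM with water at 4 h. After 4 h of bicuculline they were 32.0 to 37.2 CPM and 27.3 to 34.7 CPM. With water at 4 h, summed mural and fibroblast markers did not overlap between the groups, at 8.87 to 9.81 CPM under MM401 and 9.82 to 10.8 CPM in DMSO, where MM401 was lower. They overlapped after 1 h of bicuculline (11.7 to 13.2 and 12.2 to 12.8 CPM) and after 4 h (11.8 to 12.8 and 11.3 to 12.9 CPM). Endothelial markers overlapped in all 3, at 2.75 to 3.6 and 2.69 to 3.35 CPM with water, 3.44 to 4.28 and 3.55 to 3.74 CPM after 1 h of bicuculline, and 2.84 to 4.1 and 3.17 to 3.4 CPM after 4 h. Summed neuronal markers did not overlap after 4 h of bicuculline, at 6040 to 6620 CPM under MM401 and 6690 to 7190 CPM in DMSO. They overlapped in the other conditions. Sums of excitatory and GABAergic neurons, astrocytes and the oligodendrocyte lineage overlapped in each condition. With water at 4 h the astrocyte list median was -0.286. The part of these cells in the Ahrr and Cyp1b1 differences was not tested.

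Among 12772 genes of at least 1 CPM, the gene most like Ahrr over the 20 libraries was Cyp1b1, with a Pearson correlation of log2 CPM of 0.86, and Ahrr was the gene most like Cyp1b1. The deviations of the same pair from their group means had a correlation of -0.0277, so the likeness lies between the groups and not among replicates. Next came Fcgr2b, an inhibitory Fc receptor gene of immune cells, with 0.754 to Ahrr and 0.824 to Cyp1b1, and then Ptgs1 (0.738 to Ahrr) and Pdgfb (0.735 to Cyp1b1). Fcgr2b was also one of the 7 genes higher under MM401 in the average of the 3 conditions (0.477 ± 0.079, adjusted p = 0.00998). Tiparp was most like Sik1, Rheb and Fosl2 (each 0.99). Ahr was like Cpne3 and Entpd7 (0.972 and 0.969), Arnt like Spire1, Zfc3h1 and Med13 (0.985, 0.984 and 0.983), and Nqo1 like Arhgef10, Sipa1 and Sulf2 (0.869, 0.811 and 0.802). These correlations are descriptions over libraries that share their groups. For Ahrr and Tiparp they include the values on which these genes were selected, so no support is drawn from their ranks.

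Other genes of the pathway were read from lists written from general knowledge. Their counts with bicuculline stand beside 49.2% of all genes called at 4 h in DMSO (23.7% higher), 39.9% at 1 h under MM401 (18.1% higher) and 44.6% at 4 h under MM401 (23% higher), and nothing particular to a list is read from them. In MM401 against DMSO, in each of the 3 conditions and in their average, 0 genes of the 6 lists were called, beside 0.0826%, 0.0059%, 0% and 0.13% of all genes, shares at which nothing can be read from 0. Of 12 chaperones, partners and coactivators of AHR, 6 rose and 1 fell with bicuculline at 4 h in DMSO (list median 0.178, against -0.0237 over all genes), 6 rose at 1 h under MM401 (0.15 against -0.00178) and 4 at 4 h under MM401 (0.115 against 0.016). Rb1, the retinoblastoma protein, rose in all 3, by 0.445 ± 0.053 (adjusted p = 4.1e-07), 0.282 ± 0.053 (adjusted p = 0.000207) and 0.288 ± 0.06 (adjusted p = 0.000474). The coactivators Ncoa2 (0.298 ± 0.063) and Ep300 (0.273 ± 0.05) rose at 4 h in DMSO, and Hsp90aa1, the inducible HSP90, rose at 1 h (0.865 ± 0.26) and 4 h (0.848 ± 0.3) under MM401.

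Arnt2, the neuronal relative of Arnt, had 257 ± 24.3 CPM (SD) in DMSO with water at 4 h. In DMSO with bicuculline at 1 h it had 350 ± 24.9 CPM. This difference between unlike times was 0.446 ± 0.084 (log2 fold change, adjusted p = 0.000176). At 4 h of bicuculline in DMSO it was not called (0.16 ± 0.084, adjusted p = 0.12). Under MM401 at 1 h it had 319 ± 16.3 CPM with water and 352 ± 20.7 CPM with bicuculline. At 4 h under MM401 it had 308 ± 11.1 CPM with water and 286 ± 15.4 CPM with bicuculline. Hif1a, whose protein also pairs with ARNT, rose at 4 h by 0.264 ± 0.06 in DMSO (adjusted p = 0.000969) and by 0.341 ± 0.068 under MM401 (adjusted p = 0.000349).

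Of 14 further AHR target genes 7 were tested. Nfe2l2, which encodes NRF2, rose with bicuculline at 4 h by 0.458 ± 0.1 in DMSO (adjusted p = 0.000979) and 0.713 ± 0.12 under MM401 (adjusted p = 6.21e-05). Socs2, a suppressor of cytokine signalling, fell by 0.903 ± 0.095 and 0.623 ± 0.11 (adjusted p = 6.49e-08 and 5.41e-05). Slc7a5, an amino acid transporter, rose at 1 h under MM401 by 0.721 ± 0.16 (adjusted p = 0.00226). In all, 1 rose and 1 fell at 4 h in DMSO, 3 rose and 1 fell at 1 h under MM401, and 3 rose and 1 fell at 4 h under MM401, each of 7 tested, with 49.2%, 39.9% and 44.6% of all genes called there.

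Nqo1 shares NRF2 as a regulator with 12 listed genes, all tested. Of the 12, 4 rose and 0 fell with bicuculline at 4 h in DMSO (list median 0.143), 7 rose and 1 fell at 1 h under MM401 (0.362) and 8 rose and 0 fell at 4 h under MM401 (0.448), with 49.2%, 39.9% and 44.6% of all genes called in these comparisons. Gclc, a subunit of the glutathione synthesis enzyme, rose by 1.04 ± 0.05 in DMSO at 4 h (adjusted p = 4.23e-13) and 1.05 ± 0.057 under MM401 (adjusted p = 6.32e-12). Srxn1, sulfiredoxin, rose by 0.518 ± 0.15 and 0.732 ± 0.18 (adjusted p = 0.00905 and 0.00254), and at 1 h under MM401 by 0.602 ± 0.15 (adjusted p = 0.00407). Fth1, a ferritin subunit, rose at 4 h under MM401 (0.806 ± 0.3, adjusted p = 0.0438), and Ftl1 and Hmox1 at 1 h (0.549 ± 0.11 and 0.515 ± 0.12).

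**Figure D4:**
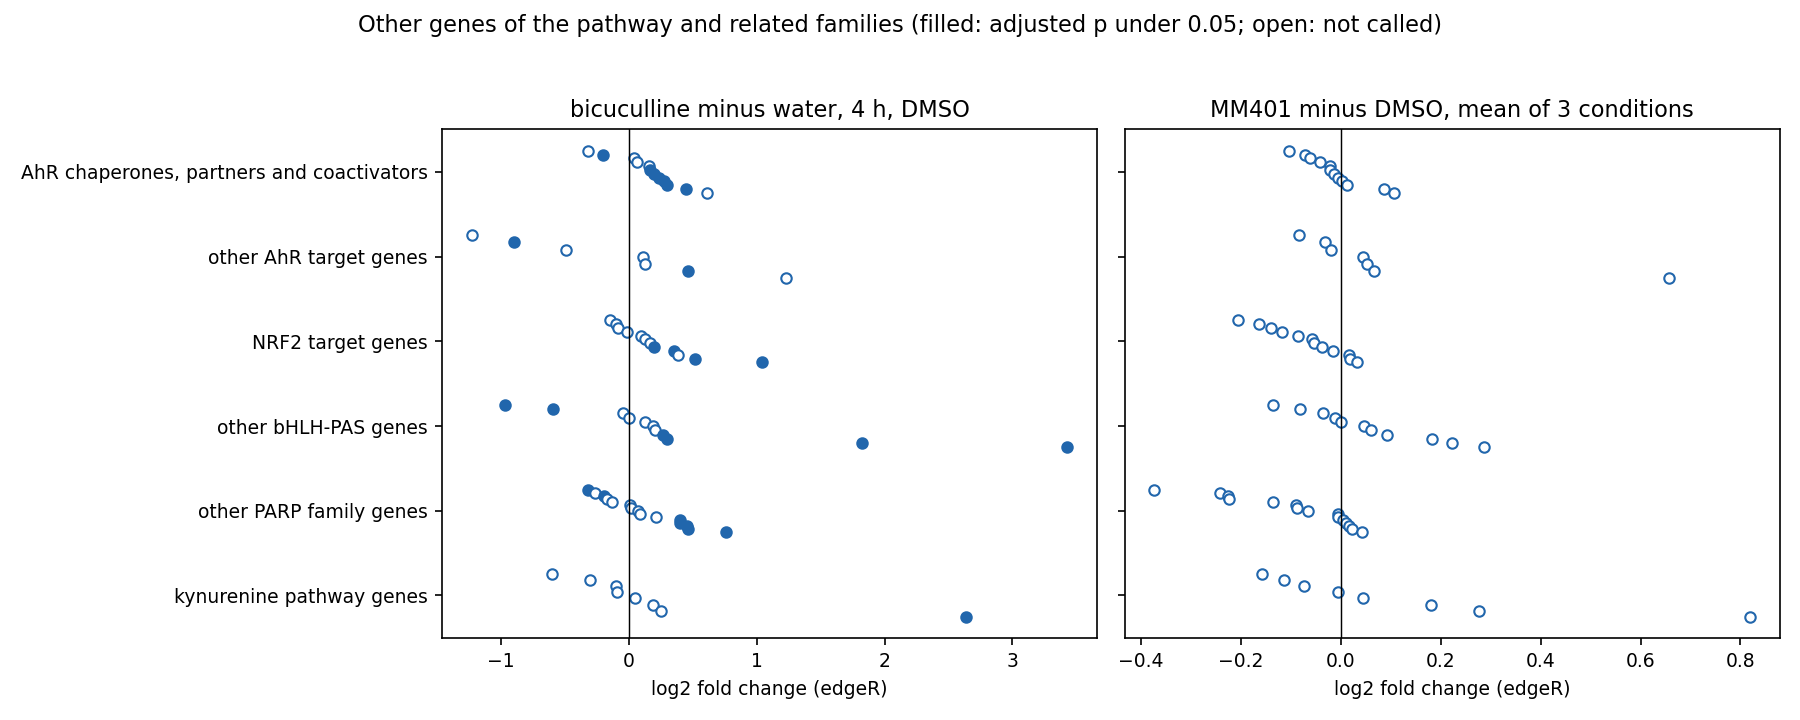
Log2 fold changes (edgeR) of the tested genes of 6 lists, 1 point per gene, filled where called, for bicuculline minus water at 4 h in DMSO (left) and MM401 minus DMSO averaged over the 3 matched conditions (right, with a narrower scale). Filled points occur on the left in every list, and none on the right.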

How the data were processed

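BrU-seq counts were used for 20 of 21 libraries in 7 groups taken from the labels; the labels do not say what replicate numbers stand for, so p-values measure the spread between these samples. The authors deposited whole-number counts of reads over the full span of each gene, without normalization. Per the submitters' processing notes Bowtie2, UMI-tools and featureCounts were used on build mm10, without versions, and the use of strand is not given in the sources used here. For 412 genes of the table more than 1 position was listed.

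From these counts edgeR 4.0.16 (R 4.3.3, limma 3.58.1) gave TMM-scaled CPM and robust quasi-likelihood tests. Genes were kept by filterByExpr (minimum count 10, total 15), and 1 model held a mean for each group. SE is the absolute log2 fold change over the root of F. A gene was called at a Benjamini-Hochberg adjusted p under 0.05 over the 16959 genes; tests were two-sided. Named list genes are up to 3 called genes per list and comparison with the largest change and at least 1 CPM, beside fixed names. The most like genes are the 3 with the highest correlation. A gene that these rules name and the text omits is not reported here. The members and lists were chosen with earlier results of these data known. The fits were run on simulated data for MM401 against DMSO in bicuculline at 1 h only, with the same spread for all genes. How they do where the spread differs between genes was not tested. Alternatives were DESeq2 1.42.0, plain library totals, no filter, all 21 libraries, a replicate block, the compared groups alone and leaving out each library.

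Same-numbered libraries deviated together, each of 3 correlations over 0.1 (lowest 0.107), in bicuculline at 4 h for MM401 and DMSO, so there the block is a pairing taken from the data.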

Additional observations from a re-analysis of the deposited data

How the results depend on the processing

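Of 819 recomputed values of the 6 genes that were counted as tested, 720 kept their direction and side of the threshold. Those that changed sign were not called, except Arnt at 1 h of bicuculline in DMSO. The 819 include the Tiparp steps between 1 h and 4 h of bicuculline and the Ahrr bicuculline differences at 1 h, given above as descriptions. Of 193 recomputed values given as descriptions, 181 moved by less than the spread between replicates. Sign changes among the 193 were all of Tiparp, most of them within that spread. The cause was not tested where none is named. Plain library totals shift the median of all genes from -0.0237 to -0.3 for bicuculline at 4 h in DMSO, and changes are to be read against it.

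With plain totals Ahr and Arnt for MM401 in water became -0.063 and -0.0479 and Arnt after 1 h of bicuculline -0.0111. For bicuculline, Cyp1b1 and Nqo1 became -0.0334 and -0.263 at 4 h in DMSO and -0.145 and -0.201 at 1 h under MM401, Arnt -0.0191 at 1 h in DMSO, and Cyp1b1 -0.0777 between 1 h and 4 h in DMSO. The interactions of Ahr, Arnt and Nqo1 became 0.18, 0.0391 and 0.149. Tiparp became -0.0584 for MM401 in water, 0.101 for MM401 after 4 h of bicuculline and 0.16 in the interaction. With all 21 libraries Ahr and Arnt for MM401 in water were -0.0126 and -0.0157, Cyp1b1 between 1 h and 4 h in DMSO -0.0344 and the Ahr interaction 0.0202, while Tiparp was -0.127 for MM401 in water and 0.117 in the interaction. The Cyp1b1 step was -0.00703 with DESeq2, -0.00757 with the replicate block and -0.0221 with the compared groups alone, and the MM401 difference of Ahr after 4 h of bicuculline was -0.00287 with DESeq2. With the compared groups alone, that of Tiparp was 0.0127.

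With each library left out in turn, these crossed 0: for MM401, Ahr after 4 h of bicuculline (-0.058 to 0.0411), Arnt in the average of 3 (-0.0271 to 0.00227) and Nqo1 in water (-0.119 to 0.465) and after 4 h of bicuculline (-0.176 to 0.361). For bicuculline, so did Ahrr at 1 h and 4 h under MM401 (-0.229 to 0.0388 and -0.055 to 0.201), Nqo1 at 1 h and 4 h under MM401 (-0.0897 to 0.0801 and -0.348 to 0.248) and at 4 h in DMSO (-0.161 to 0.226), Cyp1b1 between 1 h and 4 h in DMSO (-0.088 to 0.164), and the interactions of Ahr (-0.0821 to 0.017) and Nqo1 (-0.371 to 0.246). Tiparp crossed 0 for MM401 in water (-0.0708 to 0.141) and after 4 h of bicuculline (-0.0458 to 0.0483) and in the interaction (-0.153 to 0.0586).

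The counts of all genes called for MM401 depended on the setting. In water 14 became 0 with all 21 libraries, 162 with DESeq2, 4 with plain totals, 0 with the compared groups alone and 0 to 1272 with a library left out. After 1 h of bicuculline 1 became 14 with DESeq2, 4 with the replicate block and 0 to 2 with a library left out, and after 4 h 0 became 7 with DESeq2. In the average of 3 conditions 22 became 2 with all 21 libraries, 41 with DESeq2, 6 with plain totals, 11 with the compared groups alone and 9 to 44 with a library left out. In the average of the 4 h conditions 1 became 0, 43, 3 and 0 in that order of settings, 5 with the replicate block and 0 to 71 with a library left out. The interaction went from 0 to 436 with DESeq2 and 0 to 1551 with a library left out. Between 1 h and 4 h, bicuculline called 3745 genes in DMSO and 3646 under MM401 with all 21 libraries, in place of 5805 and 5691, and water called 19 with all 21 libraries, 275 with DESeq2, 328 with the compared groups alone and 14 to 140 with a library left out, in place of 147.

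The replicate block also brought past the threshold Cyp1b1 for MM401 after 1 h of bicuculline (0.938, adjusted p = 0.0444) and Nqo1 at 1 h of bicuculline in DMSO against water (0.583, adjusted p = 0.0306) and between 1 h and 4 h in DMSO (-0.561, adjusted p = 0.0465); it changed no other call of the 6 genes. Of 57 correlations of same-numbered libraries' deviations 25 were over 0.1 (median 0.0898). For the Cyp1b1 value and the Nqo1 value at 1 h the numbers did not pair the libraries compared. Low counts of Ahrr, Cyp1b1 and Nqo1 limit their precision.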

Other observations

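The ADP-ribosyltransferase family of Tiparp and the bHLH-PAS family of Ahr and Arnt were read in the same comparisons. Of 15 other PARP family genes tested, 5 rose and 2 fell with bicuculline at 4 h in DMSO, 4 rose and 2 fell at 1 h under MM401, and 7 rose and 2 fell at 4 h under MM401, where 49.2%, 39.9% and 44.6% of all genes were called. The tankyrase gene Tnks rose in each (0.758 ± 0.077, 1 ± 0.077 and 0.576 ± 0.087), while Parp16 fell at 1 h under MM401 (-0.757 ± 0.12, adjusted p = 4.47e-05). Of 11 other bHLH-PAS genes tested, 4 rose and 2 fell at 4 h in DMSO, again beside 49.2% of all genes. Npas4, an activity-induced neuronal factor, rose by 3.43 ± 0.18 (adjusted p = 1.81e-10) and Sim1 by 1.82 ± 0.22 (adjusted p = 4.14e-07), while Arntl2 fell by 0.97 ± 0.18 (adjusted p = 0.000127).

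Of 8 tested genes of the kynurenine pathway, whose products include ligands of AHR, 1 rose with bicuculline at 4 h in DMSO (49.2% of all genes called, 23.7% higher) and 3 rose at 1 h in DMSO against water at 4 h (44.6% called, 20% higher), while 0 rose and 0 fell at 1 h under MM401 against water of the same time (39.9% called). Kyat3 rose at 4 h under MM401 (0.63 ± 0.14, adjusted p = 0.00117). In the library left out, Ahr had 2 counts, Arnt 32, Tiparp 6, and Ahrr, Cyp1b1 and Nqo1 0 of 316741.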
